A study of Mus musculus with 12 samples.

Results

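Pancreatic islets are pervaded by capillaries, and 36 genes of these vessels and of the matrix around them were followed in islets of pregnant and non-pregnant mice with and without the prolactin receptor. The list held 20 genes of endothelial cells, 10 of the basement membrane, 4 of the interstitial matrix and 2 growth factors that act on endothelium. A member was taken from the probe sets whose annotated symbol was that gene alone, and all 36 were measured, each by 1 probe set, out of 19938 genes that have at least 1 such probe set. RNA of isolated islets was hybridised to 12 mouse gene arrays, 3 per group, and mRNA expression is given as log2 values, so that a difference of 1 is a doubling.

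All mice were on the 129Sv background. The groups were non-pregnant (NP) Prlr+/+ mice, Prlr+/+ mice in mid-pregnancy on day 9.5 (P9.5), NP Prlr-/- mice and Prlr-/- mice at P9.5. Prlr-/- mice lack the prolactin receptor in every tissue, and pregnant Prlr-/- females were given a progesterone pellet because they are otherwise sterile, so the pellet cannot be told apart from genotype where the pregnant groups are compared, from pregnancy where the Prlr-/- groups are compared, or from either in the interaction. The islets were freed with collagenase, an enzyme that digests matrix. The labels call the arrays of a group biological replicates but do not say whether an array held islets of 1 mouse or of several. The mice's ages were not given in the labels. The authors give a range of weeks for mice of this strain but no age for each group. No probe set used here carries Prlr among its annotated symbols, alone or with others, so Prlr was not analysed here and the genotype was not checked from it.

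Islet endothelium is thin and fenestrated, which lets hormones pass quickly into the blood. Beta cells secrete vascular endothelial growth factor, which draws in and keeps these vessels, and the vessels in turn lay down most of the basement membrane that beta cells rest on. That membrane is a sheet of type IV collagen and laminin, tied together by nidogen and perlecan, while the fibrillar collagens of the interstitial matrix come mainly from fibroblasts and pericytes.

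Markers of islet endocrine cells averaged between 11.4 and 11.6 on every array. One array stood apart: Prlr+/+ P9.5 replicate 2 read 3.8 for Xist, the transcript of the inactive X chromosome, against 10 to 10.7 on the other 11, while the Y-linked Kdm5d was at 4.1 to 4.6 on all. It also had the highest value of its group for Pecam1, Kdr, Flt1, Tek, Emcn and several other endothelial genes. For Vwf, Egfl7 and Sox17, endothelial genes as well, it had the lowest.

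In Prlr+/+ islets 6 members fell with pregnancy and none rose, and 4 of the 6 were basement membrane genes. Perlecan (Hspg2), both chains of the main type IV collagen (Col4a1 and Col4a2) and Sparc, a collagen-binding matrix protein, fell by 1.52-fold to 1.70-fold, and the endothelial genes Eng and Plvap fell by 1.59-fold each. None of these 6 was called in Prlr-/- islets, where 2 other endothelial genes, Emcn and Tek, rose 1.70-fold and 1.55-fold. After quantile normalization Hspg2 was called lower in Prlr-/- islets as well, and Tek was not called. A member was called when the adjusted p of limma over all 35511 probe sets was under 0.05 and the change at least 1.5-fold, which is 0.585 on the log2 scale. Of all probe sets, 4.21% were called lower and 5.73% higher with pregnancy in Prlr+/+ islets, and 7.09% lower and 7.44% higher in Prlr-/- islets. When each array was centred on its median, the share of lower among all calls went from 42.3% to 29.8% in Prlr+/+ and from 48.8% to 23.8% in Prlr-/- islets. Without Prlr+/+ NP replicate 2, Hspg2 was the 1 member still called in Prlr+/+ islets, and without P9.5 replicate 2, the array low in Xist, 8 were called lower, the same 6 with Tie1 and Ptprb. A lower signal in whole islets cannot separate fewer cells of a type from less RNA per cell.

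**Figure D1:**
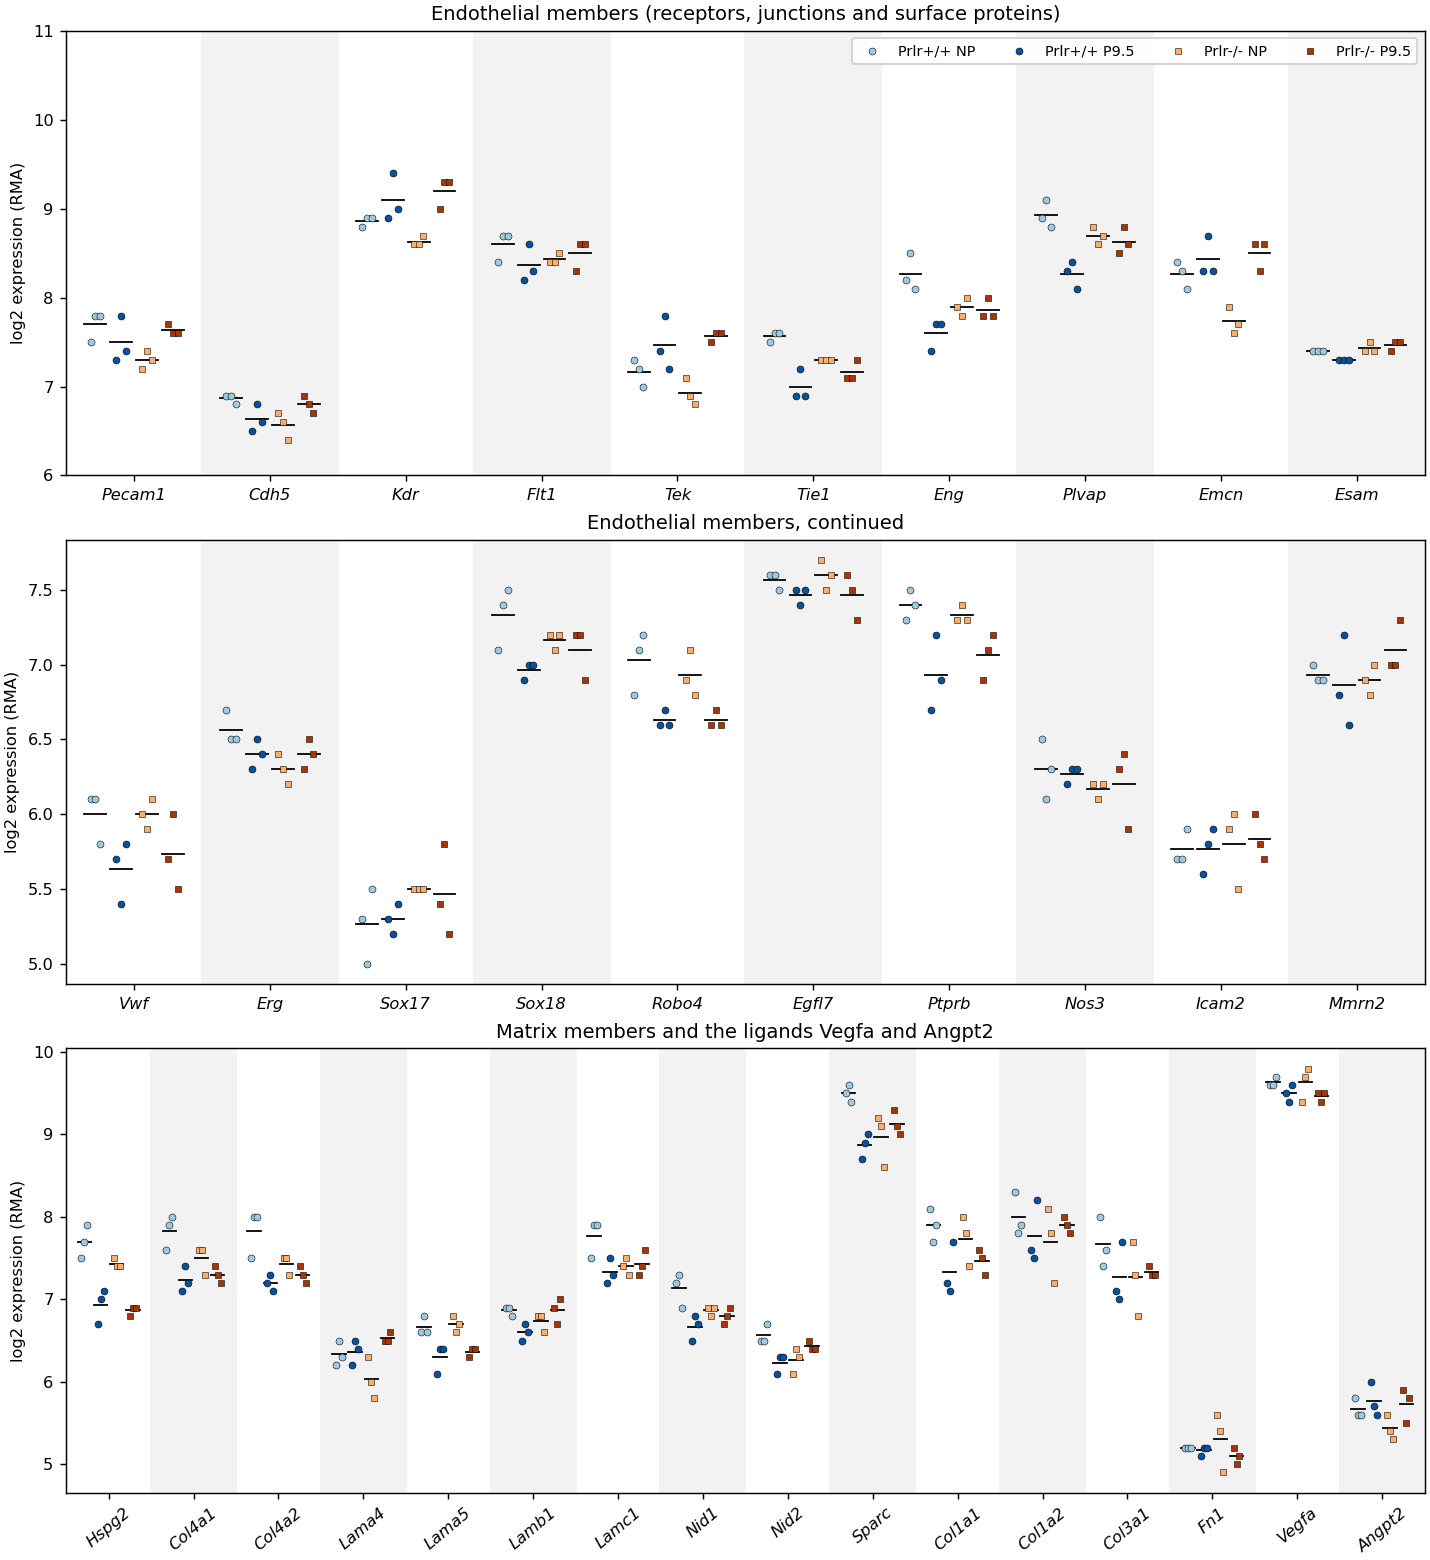
log2 expression of the 36 members (x axis) in each of the 12 arrays, by group; points are arrays and lines are group means, n = 3. The upper panels hold the 20 endothelial genes and the lower panel the matrix genes with Vegfa and Angpt2, and the Prlr+/+ NP and P9.5 points of Eng, Plvap, Hspg2, Col4a1 and Sparc do not overlap.

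Endoglin (Eng), a co-receptor of the transforming growth factor beta family on endothelium, had log2 values of 8.2, 8.5 and 8.1 in Prlr+/+ NP islets and 7.4, 7.7 and 7.7 at P9.5. The Prlr-/- arrays lay between these groups, with 7.9, 7.8 and 8.0 in NP islets and 7.8, 8.0 and 7.8 at P9.5. Thus the Prlr+/+ groups did not overlap and the Prlr-/- groups did. The change in Prlr+/+ islets was -0.67 ± 0.128 (SE, n = 3 per group; limma adjusted p = 0.0041), and that in Prlr-/- islets -0.03 ± 0.128 (limma adjusted p = 0.852). It fell below the fold minimum, at -0.55 and -0.57, without NP replicate 2 or P9.5 replicate 1. Plvap forms the diaphragms of endothelial fenestrae. Its values were 8.9, 9.1 and 8.8 in Prlr+/+ NP islets against 8.3, 8.4 and 8.1 at P9.5, and 8.8, 8.6 and 8.7 against 8.5, 8.8 and 8.6 in Prlr-/- islets. All 3 pregnant Prlr+/+ arrays were below the other 9. The change was -0.67 ± 0.12 in Prlr+/+ islets (SE; limma adjusted p = 0.00296) and -0.07 ± 0.12 in Prlr-/- islets (limma adjusted p = 0.69), and was -0.58, just under the fold minimum, without NP replicate 2 or P9.5 replicate 3.

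Endomucin (Emcn), a sialomucin of capillary and venous endothelium, moved in the other genotype. Its values were 7.9, 7.6 and 7.7 in Prlr-/- NP islets and 8.6, 8.3 and 8.6 at P9.5, while Prlr+/+ islets had 8.4, 8.3 and 8.1 in NP mice and 8.3, 8.7 and 8.3 at P9.5. The 3 Prlr-/- NP arrays were the lowest of the 12, and both pregnant groups covered about the same range. The rise in Prlr-/- islets was 0.77 ± 0.142 (SE, n = 3 per group; limma adjusted p = 0.0022). Tek encodes the angiopoietin receptor TIE2. It measured 7.1, 6.9 and 6.8 in Prlr-/- NP islets and 7.5, 7.6 and 7.6 at P9.5, a rise of 0.63 ± 0.147 (SE; limma adjusted p = 0.00733) that came to 0.57 without NP replicate 3. In Prlr+/+ islets Tek went from 7.3, 7.2 and 7.0 to 7.4, 7.8 and 7.2, ranges that overlap, with a difference of 0.30 that did not pass the test (limma adjusted p = 0.166).

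Kdr and Flt1, the receptors for vascular endothelial growth factor, did not reach the fold minimum in either genotype. Kdr, which carries most of the signal, measured 8.8, 8.9 and 8.9 in Prlr+/+ NP islets, 8.9, 9.4 and 9.0 at P9.5, 8.6, 8.6 and 8.7 in Prlr-/- NP islets and 9.0, 9.3 and 9.3 at P9.5. The Prlr-/- groups did not overlap, and the difference of 0.57 lay just under the minimum (SE 0.132; limma adjusted p = 0.00745). Kdr passed it without NP replicate 3 or P9.5 replicate 1 and after median centring. Tie1, the orphan relative of Tek, lay just under it on the other side. Tie1 values were 7.5, 7.6 and 7.6 in Prlr+/+ NP islets against 6.9, 7.2 and 6.9 at P9.5, and 7.3 on all 3 Prlr-/- NP arrays against 7.1, 7.1 and 7.3 at P9.5. The Prlr+/+ groups were apart, with a difference of -0.57 (SE 0.103; limma adjusted p = 0.00309), and it passed the minimum without NP replicate 1 or P9.5 replicate 2, after quantile normalization and with array weights.

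The other endothelial genes differed less. With no fold minimum, Tie1, Sox18, Robo4 and Ptprb joined Eng and Plvap below an adjusted p of 0.05 in Prlr+/+ islets. Sox18 is a transcription factor, Robo4 a guidance receptor and Ptprb the phosphatase that restrains TIE2, and their differences ran from -0.47 to -0.37. In Prlr-/- islets Sox18, Robo4 and Ptprb differed by -0.07, -0.30 and -0.27 (limma adjusted p = 0.69, 0.0667 and 0.13). The Prlr-/- groups of Robo4 and Ptprb were apart, with P9.5 lower, as in Prlr+/+ islets. The junction genes Pecam1, Cdh5 and Esam were not called in any comparison. Pecam1 measured 7.5, 7.8 and 7.8 in Prlr+/+ NP islets and 7.3, 7.8 and 7.4 at P9.5, with 7.2, 7.4 and 7.3 in Prlr-/- NP islets and 7.7, 7.6 and 7.6 at P9.5. Esam, an adhesion molecule of tight junctions, kept within 7.3 to 7.5 on all 12 arrays. The plasma glycoprotein Vwf, the transcription factors Erg and Sox17, the secreted Egfl7, the nitric oxide synthase Nos3, the adhesion molecule Icam2 and the matrix glycoprotein Mmrn2 were not called in any comparison, with differences from -0.37 to 0.03 in Prlr+/+ and from -0.27 to 0.20 in Prlr-/- islets. Over the 20 endothelial genes the median difference with pregnancy was -0.18 in Prlr+/+ and 0.03 in Prlr-/- islets, against -0.07 over all probe sets in each genotype.

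**Figure D2:**
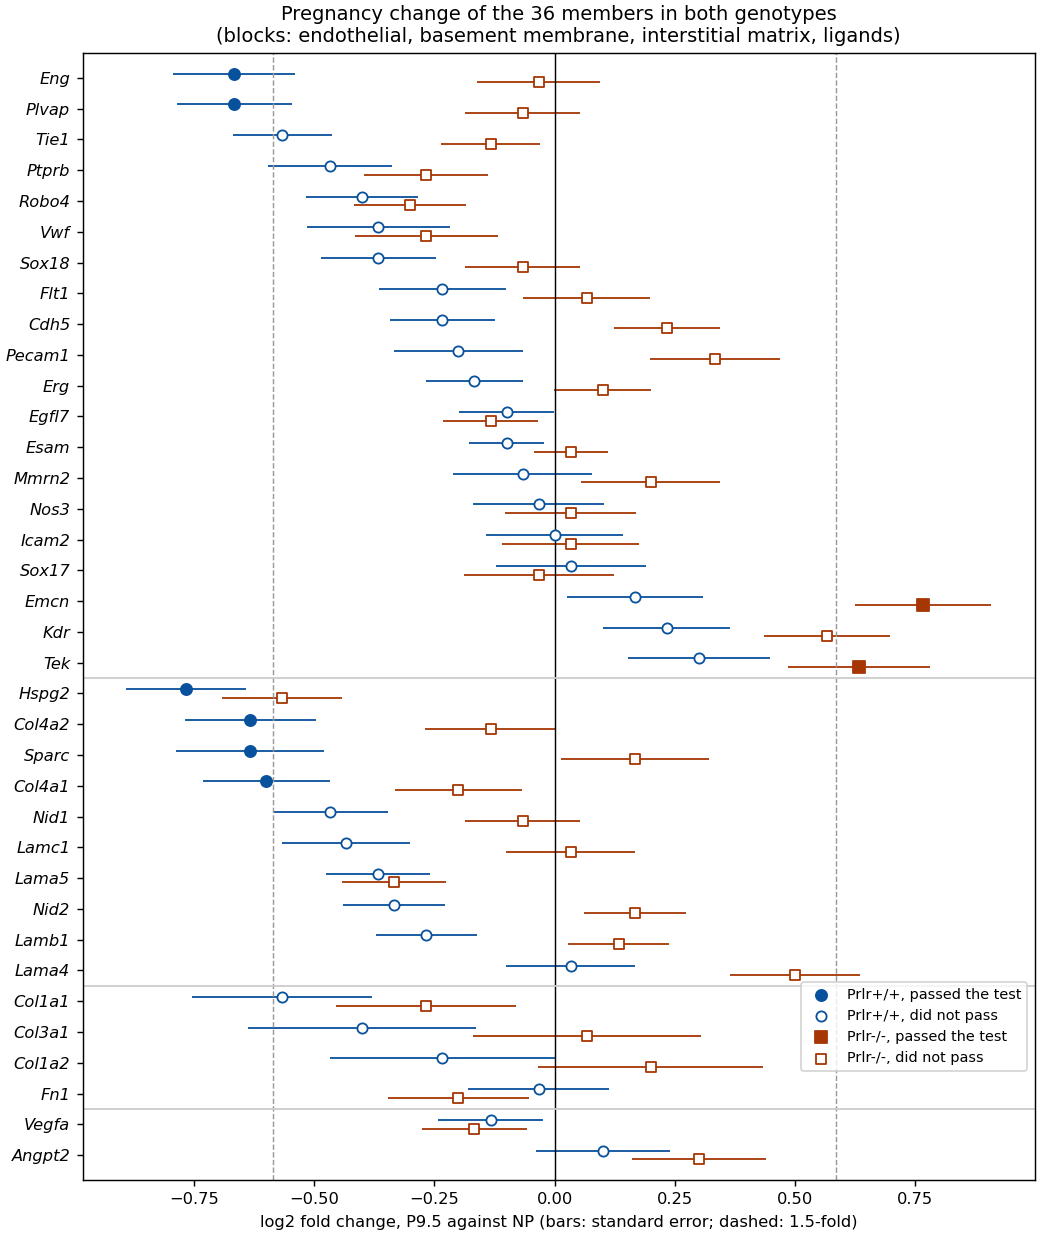
Difference in log2 expression between P9.5 and NP islets for each of the 36 members in Prlr+/+ (circles) and Prlr-/- mice (squares); bars are the standard error of the limma fit, dashed lines mark 1.5-fold, and filled symbols are the 6 and 2 members called. Hspg2 at -0.77 is the lowest point in Prlr+/+ mice and Emcn at 0.77 the highest in Prlr-/- mice.

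Among matrix genes the largest fall was that of Hspg2, whose product perlecan is the heparan sulphate proteoglycan of basement membranes. Its values were 7.5, 7.7 and 7.9 in Prlr+/+ NP islets and 6.7, 7.0 and 7.1 at P9.5. Prlr-/- islets had 7.5, 7.4 and 7.4 in NP mice and 6.8, 6.9 and 6.9 at P9.5. Every pregnant array was thus below every NP array, whatever the genotype. The difference was -0.77 ± 0.125 in Prlr+/+ islets (SE, n = 3 per group; limma adjusted p = 0.00179). For Prlr-/- islets it was -0.57 ± 0.125, past the test but just under the fold minimum (SE; limma adjusted p = 0.00548).

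Col4a1 and Col4a2 encode the chains of the type IV collagen found in nearly all basement membranes, and lie head to head on mouse chromosome 8. In RefSeq (GRCm38.p6) the annotated starts of the pair face each other and the first bases of both overlap, so that the same 22 bases at chr8:11312805-11312826 open Col4a2 on the plus strand and Col4a1 on the minus strand. The pair also moved side by side in these arrays, and whether the shared bases bear on that was not tested. They are shown 5′ to 3′:
Col4a2: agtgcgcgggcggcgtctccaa
Col4a1: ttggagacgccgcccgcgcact

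Col4a1 measured 7.6, 7.9 and 8.0 in Prlr+/+ NP islets, 7.1, 7.4 and 7.2 at P9.5, 7.6, 7.6 and 7.3 in Prlr-/- NP islets and 7.4, 7.3 and 7.2 at P9.5. Col4a2 measured 7.5, 8.0 and 8.0 in Prlr+/+ NP islets, 7.2, 7.3 and 7.1 at P9.5, 7.5, 7.5 and 7.3 in Prlr-/- NP islets and 7.4, 7.3 and 7.2 at P9.5. For both genes the Prlr+/+ groups were apart and the Prlr-/- groups overlapped. The differences in Prlr+/+ islets were -0.60 ± 0.132 for Col4a1 and -0.63 ± 0.136 for Col4a2 (SE; limma adjusted p = 0.00809 and 0.0073), Col4a1 being the called member nearest to the fold minimum. In Prlr-/- islets they were -0.20 and -0.13 (limma adjusted p = 0.259 and 0.469). Both fell below the fold minimum without NP replicate 2 or 3 or P9.5 replicate 3, and Col4a1 also without P9.5 replicate 1, at -0.58 to -0.52.

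Sparc binds collagen IV and is made by endothelium and stroma. Its values were 9.5, 9.6 and 9.4 in Prlr+/+ NP islets and 8.7, 8.9 and 9.0 at P9.5, against 9.2, 9.1 and 8.6 in Prlr-/- NP islets and 9.3, 9.1 and 9.0 at P9.5. The 3 Prlr+/+ NP arrays were the highest of all 12, and the change there was -0.63 ± 0.153 (SE, n = 3 per group; limma adjusted p = 0.0131). It was -0.58 without NP replicate 2 and -0.55 without P9.5 replicate 1 (limma adjusted p = 0.051 and 0.0555). The difference in Prlr-/- islets was 0.17 (limma adjusted p = 0.421).

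Laminins are trimers of an alpha, a beta and a gamma chain, and the alpha 4 and alpha 5 chains are those of vessel walls. Lama5 values were 6.6, 6.8 and 6.6 in Prlr+/+ NP islets against 6.1, 6.4 and 6.4 at P9.5, and 6.8, 6.6 and 6.7 against 6.3, 6.4 and 6.4 in Prlr-/- islets. It was lower in all 3 pregnant arrays of each genotype, by less than 1.5-fold, with differences of -0.37 and -0.33 (limma adjusted p = 0.0317 and 0.0339). Lama4 went from 6.3, 6.0 and 5.8 in Prlr-/- NP islets to 6.5, 6.5 and 6.6 at P9.5, groups that did not overlap, with a difference of 0.50 that was under the fold minimum (SE 0.135; limma adjusted p = 0.0152) and over it without NP replicate 1 or after median centring. In Prlr+/+ islets Lama4 measured 6.2, 6.5 and 6.3 in NP mice and 6.2, 6.5 and 6.4 at P9.5. The linkers Nid1 and Nid2 and the gamma chain Lamc1 had adjusted p below 0.05 in Prlr+/+ islets at differences from -0.47 to -0.33, and Lamb1 missed it at -0.27 (limma adjusted p = 0.0889).

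No interstitial matrix gene was called in either genotype. Col1a1, a chain of fibrillar type I collagen, came nearest at -0.57 in Prlr+/+ islets (limma adjusted p = 0.0499), with 8.1, 7.7 and 7.9 in NP mice and 7.2, 7.1 and 7.7 at P9.5. The groups touched at 7.7, and Col1a1 was called lower without P9.5 replicate 3. Col1a2 and Col3a1, its partner chain and the type III collagen chain, differed by -0.23 and -0.40 with wider spread (SE 0.234 and 0.237), and fibronectin (Fn1) stayed between 5.1 and 5.2 in all 6 Prlr+/+ arrays.

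Neither growth factor was called in any comparison. Vegfa, the factor that beta cells send to the vessels, measured 9.6, 9.6 and 9.7 in Prlr+/+ NP islets, 9.5, 9.4 and 9.6 at P9.5, 9.4, 9.7 and 9.8 in Prlr-/- NP islets and 9.5, 9.4 and 9.5 at P9.5. Its differences with pregnancy were -0.13 and -0.17, with 95% confidence intervals that included 0. Angpt2, a ligand of TIE2 that loosens vessels, measured 5.8, 5.6 and 5.6, then 6.0, 5.7 and 5.6 in Prlr+/+ islets, and 5.6, 5.4 and 5.3, then 5.9, 5.5 and 5.8 in Prlr-/- islets. NP and P9.5 values overlapped in each genotype for both genes.

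Endothelial and matrix genes were then set side by side. In Prlr+/+ islets 4 of 14 matrix genes and 2 of 20 endothelial genes were called lower, against 4.21% of all probe sets. The NP and P9.5 arrays did not overlap for 8 of the 14 and 7 of the 20, with P9.5 lower in each case. Over all probe sets the groups were apart with P9.5 lower for 17.3% and higher for 15%. With no fold minimum 9 matrix and 6 endothelial genes were lower and none higher, against 10.3% and 11.5% of all probe sets. Among Prlr-/- arrays 2 of 20 endothelial and 0 of 14 matrix genes were called, all higher, against 7.44% higher and 7.09% lower among all probe sets. With no fold minimum 3 endothelial genes (Kdr, Tek and Emcn) and 1 matrix gene (Lama4) were higher and 2 matrix genes (Hspg2 and Lama5) lower, against 15.6% higher and 17.7% lower among all probe sets. The Prlr-/- groups were apart for 5 of the 36 members with P9.5 higher and 4 with P9.5 lower, against 19.4% and 22.4%. The median difference of the matrix genes was -0.42 in Prlr+/+ and -0.02 in Prlr-/- islets, against -0.07 over all probe sets in each genotype. After median centring the Prlr-/- value was 0.15, against 0.10 over all probe sets. The matrix count in Prlr+/+ islets was 1 after median centring or without NP replicate 2, and 2 without NP replicate 3 or P9.5 replicate 1, and the endothelial count 0 without NP replicate 2, 1 without P9.5 replicate 1 or 3 and 4 without P9.5 replicate 2.

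The mean log2 expression of the 20 endothelial genes was 7.27, 7.32 and 7.29 in Prlr+/+ NP arrays and 7.01, 7.22 and 7.06 at P9.5. In Prlr-/- arrays it was 7.17, 7.12 and 7.11 in NP mice and 7.19, 7.28 and 7.18 at P9.5. By this mean, pregnant arrays were lower in Prlr+/+ and higher in Prlr-/- mice, by small margins. With the median over the members in its place, Prlr+/+ islets went from 7.37 to 7.02. Prlr-/- islets went from 7.22 to 7.20, so the rise there was not seen with the median. The mean of the 14 matrix genes was 7.33, 7.37 and 7.36 in Prlr+/+ NP arrays and 6.81, 6.97 and 7.06 at P9.5, and 7.25, 7.14 and 6.89 in Prlr-/- NP arrays and 7.09, 7.04 and 7.05 at P9.5. Matrix minus endothelial mean fell from 0.06 ± 0.0126 to -0.15 ± 0.134 in Prlr+/+ islets and went from -0.04 ± 0.16 to -0.16 ± 0.0772 in Prlr-/- islets (SD, n = 3 arrays). Since the members were chosen with results known, these means carry no test.

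**Figure D3:**
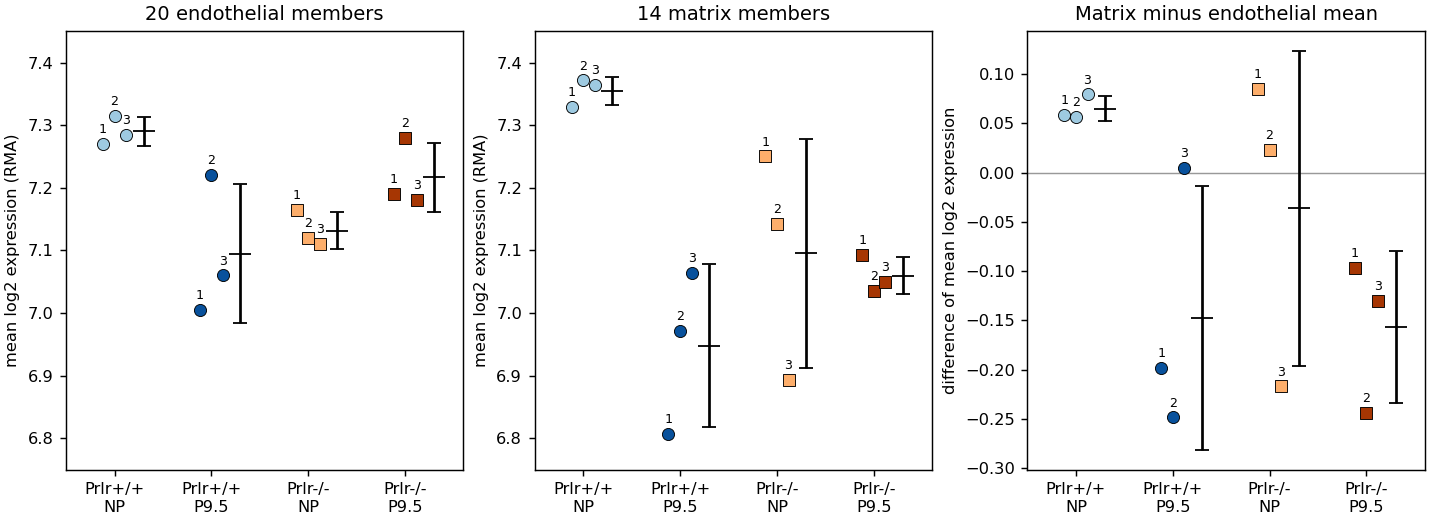
Mean log2 expression of the 20 endothelial genes (left) and the 14 matrix genes (middle), and the matrix mean minus the endothelial mean (right), for each array, labelled by replicate number; bars are group mean ± SD, n = 3. The Prlr+/+ NP arrays have the highest matrix means, between 7.33 and 7.37, and the Prlr-/- NP arrays spread from 6.89 to 7.25.

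Between genotypes no member was called, either in NP islets or at P9.5, where limma called 0.101% and 0.231% of all probe sets. At an unadjusted p under 0.05, 13 members were lower and 0 higher in Prlr-/- than in Prlr+/+ NP islets, against 5.19% and 7.14% of all probe sets. The 13 included Emcn (-0.53), Sparc (-0.53), Pecam1 (-0.40), Col4a2 (-0.40) and Eng (-0.37), with limma adjusted p from 0.182 to 0.278. At P9.5 Plvap (0.37) and Lamb1 (0.27) were the 2 members past the unadjusted level, both higher in Prlr-/- islets, against 2.79% higher and 2.63% lower among all probe sets. The groups were apart for 9 members in NP islets, all lower in Prlr-/- mice (5.22% of all probe sets lower, 6.47% higher), and for 4 at P9.5, all higher (3.16% higher, 2.91% lower). The matrix and endothelial medians of the NP comparison were -0.30 and -0.17, against 0 over all probe sets, and at P9.5 they were 0.12 and 0.13, against 0. The same NP arrays enter the comparison of genotypes and those with pregnancy, so these values are not separate evidence.

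Whether pregnancy acted differently in the 2 genotypes was tested as an interaction, and no member passed it. limma called 0.0788% of all probe sets there. At an unadjusted p under 0.05, 13 members had a more positive change in Prlr-/- islets and 0 a more negative one, against 4.26% and 5.59% of all probe sets, and 32 of the 36 differences were above 0. The largest was that of Sparc at 0.80 (95% confidence interval 0.33 to 1.27; limma adjusted p = 0.271), followed by Eng at 0.63 (limma adjusted p = 0.278), with Plvap and Emcn at 0.60 (limma adjusted p = 0.272 and 0.362). The different sets of called genes in Prlr+/+ and Prlr-/- mice are therefore not shown to differ by genotype.

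Other genes that act on vessels were taken from the same fit. Of 45 genes of vascular signalling, 1 rose and 3 fell in Prlr+/+ islets, where 5.73% and 4.21% of all probe sets did, and 2 rose and 3 fell in Prlr-/- islets, against 7.44% and 7.09%. Esm1, a proteoglycan of endothelial tip cells, rose in both, by 0.70 and 0.67 (limma adjusted p = 0.00622 and 0.00536), from 8.3, 7.8 and 7.7 to 8.6, 8.7 and 8.6 in Prlr+/+ islets. The semaphorin and growth factor co-receptor Nrp1 rose by 0.83 in Prlr-/- islets (limma adjusted p = 0.000178), from 7.3, 7.4 and 7.5 to 8.1, 8.3 and 8.3, and in Prlr+/+ islets it went from 7.9 on all 3 arrays to 8.2, 8.4 and 8.4, a difference of 0.43 under the fold minimum (limma adjusted p = 0.00879). Epas1, which encodes the hypoxia-inducible factor HIF-2 alpha, fell in Prlr+/+ islets from 8.2, 8.8 and 8.5 to 7.4, 7.8 and 7.5, by 0.93 (limma adjusted p = 0.00139). Its Prlr-/- values went from 8.2, 8.3 and 8.3 to 7.7 on all 3 arrays, a difference of -0.57 just under the fold minimum (limma adjusted p = 0.0117). Thbs1, the angiogenesis inhibitor thrombospondin 1, and the Notch ligand Jag2 fell with it, by 0.83 and 0.60. Jag2 also fell in Prlr-/- islets, by 0.67, as did its receptor Notch1 by 0.60 and the vasodilator adrenomedullin (Adm) by 0.63. Adm was dim, with a mean of 5.25 over all arrays against array medians of 5.7 to 5.9. It went from 5.8, 5.4 and 5.6 to 4.8, 5.2 and 4.9 in Prlr-/- islets, and from 5.0, 5.3 and 5.3 to 5.2, 5.1 and 5.4 in Prlr+/+ islets. Notch1 went from 8.1, 8.4 and 8.4 to 7.6, 7.8 and 7.9 in Prlr+/+ islets. Thbs1 went from 8.5, 8.4 and 8.5 to 7.7, 8.0 and 8.2 in Prlr-/- islets. In both cases the groups were apart, though the gene was not called there.

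**Figure D4:**
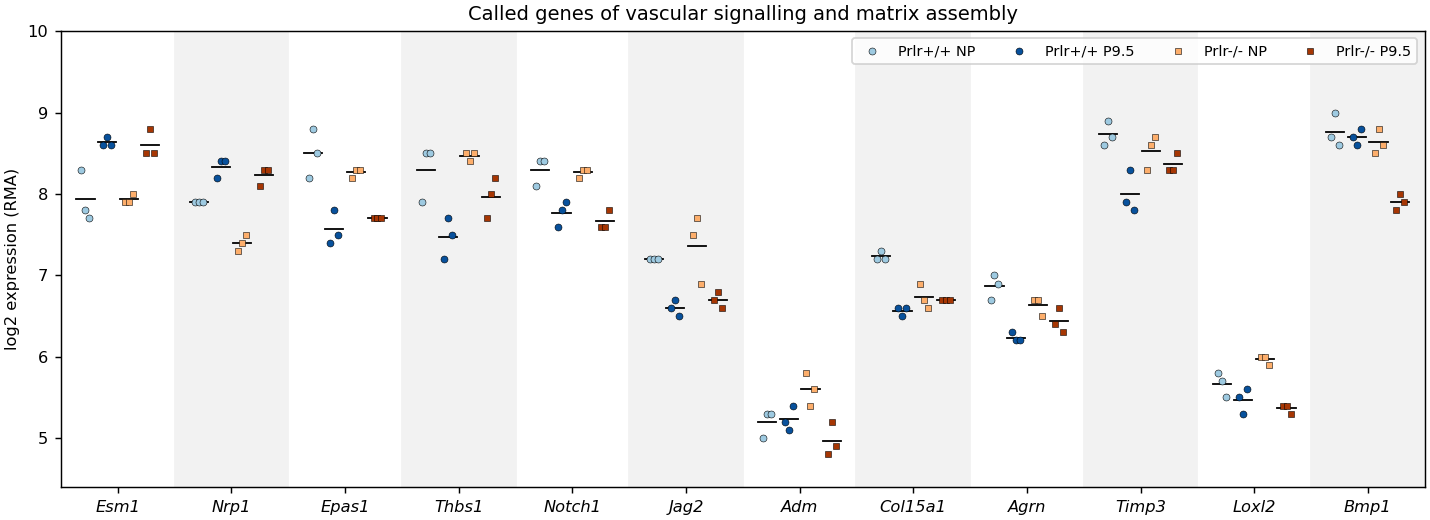
log2 expression in each of the 12 arrays of the genes of vascular signalling and matrix assembly called with pregnancy in either genotype (x axis); points are arrays and lines are group means, n = 3. Esm1 was higher at P9.5 in both genotypes, while the 3 Prlr-/- P9.5 arrays of Bmp1, at 7.8 to 8.0, lay below the other 9.

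Of 50 genes of matrix assembly and adhesion, 3 fell and none rose in Prlr+/+ islets, and 2 fell and none rose in Prlr-/- islets, beside 4.21% and 7.09% of all probe sets lower. The 3 were Col15a1, a collagen that joins basement membrane to stroma, agrin (Agrn), the other large heparan sulphate proteoglycan of these membranes, and the protease inhibitor Timp3. Col15a1 went from 7.2, 7.3 and 7.2 to 6.6, 6.5 and 6.6, a difference of -0.67 ± 0.0928 (SE; limma adjusted p = 0.000855), and its Prlr-/- arrays ran from 6.6 to 6.9 in NP mice and stood at 6.7 on all 3 at P9.5. Agrn differed by -0.63 and Timp3 by -0.73. Bmp1, the procollagen C-proteinase, measured 8.5, 8.8 and 8.6 in Prlr-/- NP islets and 7.8, 8.0 and 7.9 at P9.5 (limma adjusted p = 0.00127), and the collagen cross-linking enzyme Loxl2 fell by 0.60 there. Bmp1 was also the gene of this list that differed between genotypes at P9.5, at -0.80 (limma adjusted p = 0.0206).

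Markers of other cells moved between the arrays as well. With pregnancy, 4.21% of all probe sets were called lower and 5.73% higher in Prlr+/+ islets, and 7.09% and 7.44% in Prlr-/- islets. Of 21 acinar markers, 14 were called lower and 1 higher in Prlr-/- islets, and 0 lower and 1 higher in Prlr+/+ islets. Differences were below 0 for 20 of the 21 in Prlr-/- islets (median -1.37) and for 18 in Prlr+/+ islets (median -0.53). Their mean level ranged from 9.77 to 10.4 and 9.11 to 10.2 in Prlr+/+ NP and P9.5 arrays. In Prlr-/- NP and P9.5 arrays it ranged from 10.1 to 11.1 and 8.67 to 10.2. None of 20 pericyte and fibroblast markers and none of 13 macrophage markers was called. Of the 20, differences were below 0 for 15 in Prlr+/+ islets (median -0.27) and for 11 in Prlr-/- islets (median -0.08). Of the 13, they were below 0 for 6 in each genotype (medians 0.07 and 0.00). The median over all probe sets was -0.07 in each genotype. The pericyte and fibroblast mean ranged from 6.10 to 6.32 and 5.92 to 6.14 in Prlr+/+ NP and P9.5 arrays and from 5.88 to 6.23 and 5.97 to 6.11 in Prlr-/- ones. Of 5 lymphatic endothelial markers, Lyve1 and Reln fell in Prlr+/+ islets, by 0.73 and 0.63, and none was called in Prlr-/- islets, where 4 of the 5 differences were below 0. The duct marker Krt7 fell in Prlr+/+ islets by 0.80, and 2 of 9 duct markers, Muc1 and Tff2, fell in Prlr-/- islets. Of 13 endocrine markers, Mafa and Nkx6-1 fell and Ucn3 rose in Prlr+/+ islets, and Ucn3 alone rose in Prlr-/- islets. The part of these cells in the changes of the members was not tested.

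The promoters of the members were compared for short motifs of ETS, GATA and SOX factors, which are known in endothelium, and for the general GC box. The search covered the 250 bases upstream of each start, on both strands. RefSeq promoters (GRCm38.p6) were at hand for 19 of the 36 members, 9 endothelial, 9 matrix and Vegfa. The ETS core AGGAAG (reverse CTTCCT) was in 7 of the 9 endothelial promoters, those of Flt1, Tie1, Eng, Emcn, Erg, Robo4 and Egfl7, and in 1 of the 9 matrix promoters, that of Nid1, against 32.3% of 27025 genes. The GC box GGGCGG was in 4 of the 9 endothelial and 6 of the 9 matrix promoters, against 35.4%. The second ETS core CGGAAG was in 1 of 9 and 1 of 9 (15.3% of all), the GATA motif AGATAA in 1 of 9 and 0 of 9 (11.4%), and the SOX motif ACAAAG in 3 of 9 and 1 of 9 (18.6%). A match is a string of letters and not a bound site.

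Windows around a match are shown for endothelial genes that fell, rose or stayed under the fold minimum, so that the setting of the same letters can be compared, 5′ to 3′ on the strand of the gene with the match in capitals. They lie at chr2:32646564-32646594 on the plus strand for Eng, chr3:137340960-137341015 on the plus strand for Emcn, chr4:118490038-118490093 on the minus strand for Tie1, chr5:147726034-147726089 on the minus strand for Flt1 and chr9:37401898-37401953 on the plus strand for Robo4. The match of Eng ends at the last base before the start, and the others lie 43 to 213 bases further up:
Eng: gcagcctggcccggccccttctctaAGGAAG
Emcn: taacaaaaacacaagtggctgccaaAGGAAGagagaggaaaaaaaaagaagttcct
Tie1: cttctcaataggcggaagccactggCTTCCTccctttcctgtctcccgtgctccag
Flt1: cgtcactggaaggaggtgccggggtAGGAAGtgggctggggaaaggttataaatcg
Robo4: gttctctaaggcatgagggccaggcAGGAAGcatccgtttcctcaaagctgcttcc

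The letters AGGAAG stood upstream of Eng, which fell in Prlr+/+ islets, and of Emcn, which rose in Prlr-/- islets. The Hspg2 promoter held 5 GC boxes, of which 1 is shown in capitals with its neighbours at chr4:137468710-137468765 on the plus strand, since Hspg2 had the largest fall:
Hspg2: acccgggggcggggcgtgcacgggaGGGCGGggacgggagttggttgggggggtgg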

How the data were processed

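Total RNA of collagenase-isolated islets was hybridised to MoGene_1.0_ST arrays. The authors made the deposited log2 values with robust multichip analysis (aroma.affymetrix, R 2.12.2), which corrects background, normalizes by quantiles and gives 1 value per probe set, and the values are rounded to 0.1, so differences come in coarse steps. Symbols came from the platform annotation: 21789 probe sets had 1 symbol, 1621 several and 12101 none. Array medians were 5.7 to 5.9 and within-group array correlations 0.979 to 0.987. Precision is limited by 3 arrays per group; an exact permutation test of 3 against 3 cannot go below 0.1.

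limma 3.58.1 in R 4.3.3 (lmFit, eBayes) fitted 4 group means to all probe sets, with Benjamini-Hochberg adjustment over all of them. Groups came from GEO's labels. The 36 members and all lists were chosen with earlier results of these data known. Named genes are the called members, the 3 endothelial and 3 matrix genes with the largest pregnancy change per genotype, Vegfa and Angpt2, and called genes or the largest changes of other lists; acinar genes are given by count. On simulated data for pregnancy in Prlr+/+ mice (35511 probe sets), 45 of 100 changes of 0.7 and 80 of 100 of 1 were recovered, with 3 false calls. Far fewer probe sets were changed there than were called in the arrays, and noise was drawn separately for each probe set. These shares therefore do not measure the power of the real test. Alternatives were a replicate block, a fit of the compared groups, leaving out each array, leaving out the dimmest 40% of probe sets, median centring, quantile normalization, a trend with robust prior, array weights, no fold minimum and the median over members. Replicate numbers did not pair the arrays. Promoters came from RefSeq (GRCm38.p6).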

Additional observations from a re-analysis of the deposited data

How the results depend on the processing

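In Prlr+/+ islets the count of endothelial genes called with pregnancy was 2, and 6 with no fold minimum, and leaving out single arrays gave 0 to 4. It was 0 without NP replicate 2, 1 without P9.5 replicate 1 or 3, and 4 without P9.5 replicate 2, the array low in Xist. The count of matrix genes was 4, with 1 after median centring, 9 with no fold minimum and 1 to 4 on leaving out arrays: 1 without NP replicate 2, and 2 without NP replicate 3 or P9.5 replicate 1. In Prlr-/- islets the endothelial count of 2 became 1 after quantile normalization, and the matrix count of 0 became 1 after median centring (Lama4), 1 after quantile normalization (Hspg2), 3 with no fold minimum and 0 to 1 on leaving out arrays (1 without NP replicate 1). Emcn in Prlr-/- and Hspg2 in Prlr+/+ islets were called in all 20 settings, whereas Col4a1 and Col4a2 were lost without 4 and 3 of the 12 arrays in turn and after median centring, which also lost Sparc, and Tek was lost without Prlr-/- NP replicate 3 and after quantile normalization. Of 160 alternatives for the 8 calls, 142 kept the call, 18 lost it and 0 changed direction. Not all of these were real trials of a call. Leaving out an array of the other genotype did not move the difference, and dropping the fold minimum only relaxed the rule. Every call lost on leaving out an array was lost without an array of the 2 groups compared. Median centring raised the median of all probe sets in Prlr-/- islets from -0.07 to 0.10 and that of the matrix genes from -0.02 to 0.15, and took the share of lower calls from 42.3% to 29.8% in Prlr+/+ and from 48.8% to 23.8% in Prlr-/- islets. Array medians, read in steps of 0.1, were 5.9 on all 3 Prlr-/- NP arrays and 5.7, 5.8 and 5.7 at P9.5. Centring therefore added the same amount to every Prlr-/- difference with pregnancy, and the median of all probe sets there did not come to 0. What lay behind the different array medians was not tested.

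Class means moved by more than their SD in some cases. The median over the members in place of the mean gave 7.37, 7.22, 7.60, 7.28 and 7.10 for endothelial genes in Prlr+/+ NP and Prlr-/- NP islets and matrix genes in Prlr+/+ NP, Prlr-/- NP and Prlr-/- P9.5 islets. For endothelial genes at P9.5 this median was 7.02 in Prlr+/+ and 7.20 in Prlr-/- islets, within the SD of the mean. Median centring gave 7.03 and 7.28 for endothelial genes in Prlr-/- NP and P9.5 islets and 7.13 for matrix genes in Prlr-/- P9.5 islets. With the replicate number as a block, the same 6 and 2 members were called, 2 endothelial and 4 matrix genes in Prlr+/+ and 2 and 0 in Prlr-/- islets. Only 7 of 18 same-numbered pairs of arrays deviated together (correlation over 0.1) and 1 of 12 arrays correlated best with arrays of the same number. Each member had 1 probe set, so averaging probe sets changed nothing. With 3 arrays per group and values rounded to 0.1, changes near the fold minimum rest on single arrays.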
